A study of Bos taurus with 170 samples.

Results

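Blastomeres of Day 2 bovine embryos were divided by whether any CDX2 transcript had been counted in them. The embryos were collected around the 8-cell stage, and the paper's cell numbers per embryo lay on both sides of 8. Cells with 10000 or more unique molecular identifiers (UMI) on genes were kept, and ERCC spike-ins were not counted. Cells with 1 or more CDX2 UMI were called CDX2-positive and cells with 0 were called CDX2-zero. Of the 170 cells in the count table, 47 were Day 2 cells and 37 of these were kept, 23 of them CDX2-positive and 14 CDX2-zero. The other 10 Day 2 cells held 50 to 8683 UMI and none of them had a CDX2 UMI. All 6 Day 2 embryos, named Day2-E1 to Day2-E6, had cells in both groups. Both groups shared every condition: the embryos came from oocytes of slaughterhouse ovaries matured and fertilised in vitro, were cultured without treatment, and were taken apart into single cells after removal of the zona pellucida. The groups were therefore defined by the CDX2 count alone, and CDX2 was left out of the tested genes.

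CDX2 is a homeodomain transcription factor known for its part in the trophectoderm, the outer layer of the blastocyst that forms the placenta. In the mouse its expression becomes restricted to outer cells after compaction, downstream of TEAD4 and YAP1, which the Hippo pathway holds back in inner cells. POU5F1, NANOG and SOX2 are known as regulators of the pluripotent inner cells. At the 8-cell stage the bovine embryo still carries much RNA stored in the oocyte and is beginning major activation of its own genome.

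CDX2 was rare in every embryo. The 37 cells held 59 CDX2 UMI among 3993634 UMI, or 14.77 UMI per 1000000 UMI (counts per 1000000, CPM). Day2-E1 had 2 positive and 2 zero cells, with 8 CDX2 UMI. Day2-E2 had 7 positive and 1 zero cell, with 16 CDX2 UMI. Day2-E3 had 5 positive and 2 zero cells, with 12 CDX2 UMI. These 3 embryos lay close together, at 17.3, 17.6 and 15.8 CPM over all their cells. Day2-E4 had 3 positive and 3 zero cells, with 7 CDX2 UMI. Day2-E5 had 4 positive and 3 zero cells, with 14 CDX2 UMI. Day2-E6 had 2 positive and 3 zero cells, with 2 CDX2 UMI. Their levels were 10.698, 18.0 and 4.63 CPM, so that Day2-E6 was the lowest of the 6 embryos. These values chose the groups and are given as a description.

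Positive cells held a median of 2 CDX2 UMI and at most 7. Just inside the threshold, 9 positive cells held 1 CDX2 UMI, while 8 held 2 or 3 and 6 held 4 or more. Just outside it, a single UMI would have stood for a median of 14.93 CPM in the 14 zero cells, with a range of 7.24 to 79.1 CPM. In the positive cells 1 UMI stood for a median of 8.31 CPM, with a range of 2.799 to 18.0 CPM. The CDX2 level of positive cells ran from 5.24 to 36.01 CPM with a median of 19.4. A zero cell could therefore hold a level of CDX2 found in some positive cells and still give no UMI.

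**Figure D1:**
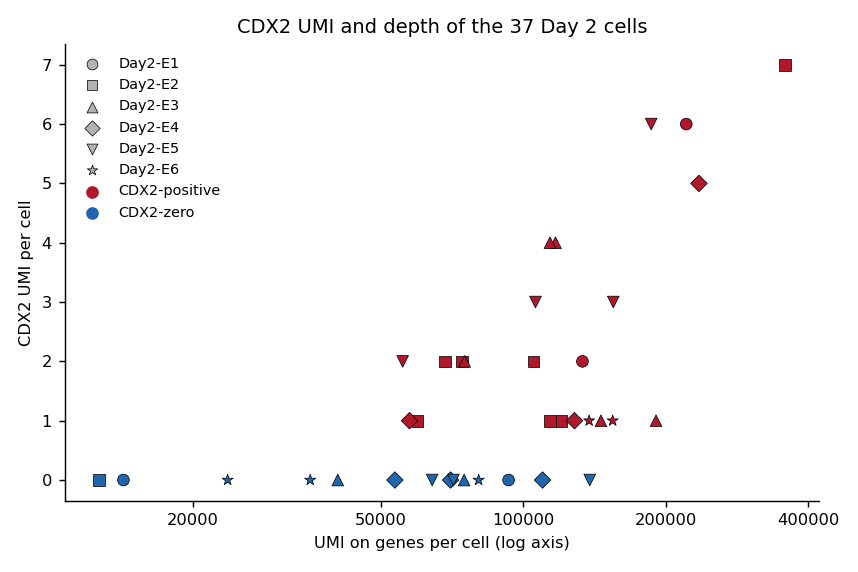
CDX2 UMI per cell (vertical axis) against UMI on genes per cell (horizontal log axis) for the 37 Day 2 cells, with 1 point per cell, shape for embryo and colour for group. Zero cells lie between 12649 and 138166 UMI and positive cells between 55536 and 357287, and the cell with 7 CDX2 UMI is the deepest.

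Depth moved with the grouping. The median UMI per cell was 120322 in positive cells (range 55536 to 357287) and 67135 in zero cells (range 12649 to 138166). The median of the positive cells of an embryo was 177222 in Day2-E1, 105009 in Day2-E2, 116926 in Day2-E3, 128279 in Day2-E4, 130514 in Day2-E5 and 146120 in Day2-E6. The median of the zero cells was 53645, 12649, 57698.5, 70147, 71108 and 35395 in the same order. Every positive median lay above every zero median. The geometric mean ratio of the paired medians was 3.03-fold, with a range of 1.83 to 8.30 and a mean log2 ratio of 1.598 ± 0.86 (SD, n = 6 embryos; two-sided exact sign-flip permutation p = 0.03125, the smallest 6 pairs allow). A deeper cell has more chance of yielding a CDX2 UMI, so depth is not independent of the rule.

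The deepest cell of each of the 6 embryos was CDX2-positive. In Day2-E5 the shallowest cell, with 55536 UMI, was also positive and held 2 CDX2 UMI. Of the 12 shallowest cells 4 were positive, of the next 12 cells 7, and of the 13 deepest 12. If every cell had held the CDX2 share of its own embryo, 5.36, 9.14 and 11.45 positive cells would be awaited in these depth classes, and 26.0 in all against 23 observed. With each cell thinned at random to 10000 UMI, 4.22 positive cells (11.405%) would be left on average. The 5 draws gave 5, 3, 7, 8 and 4 positive cells.

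Genes with a UMI followed depth. The median number per cell was higher in positive cells in 6 of 6 embryos, by a mean of 1703 genes ± 947 (SD, n = 6; two-sided exact sign-flip permutation p = 0.03125). After thinning to 10000 UMI the mean difference was 17.4 genes ± 52.6 (SD, n = 6; two-sided exact sign-flip permutation p = 0.5), with 3 embryos higher and 3 lower. The share of ERCC UMI, which were added in equal amount to each well, lay between 1.203% and 1.57% in the 12 sums of cells. Its mean log2 ratio was 0.14 ± 0.16 (SD, n = 6; two-sided exact sign-flip permutation p = 0.09375), and it was higher in positive cells in 5 of 6 embryos.

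**Figure D2:**
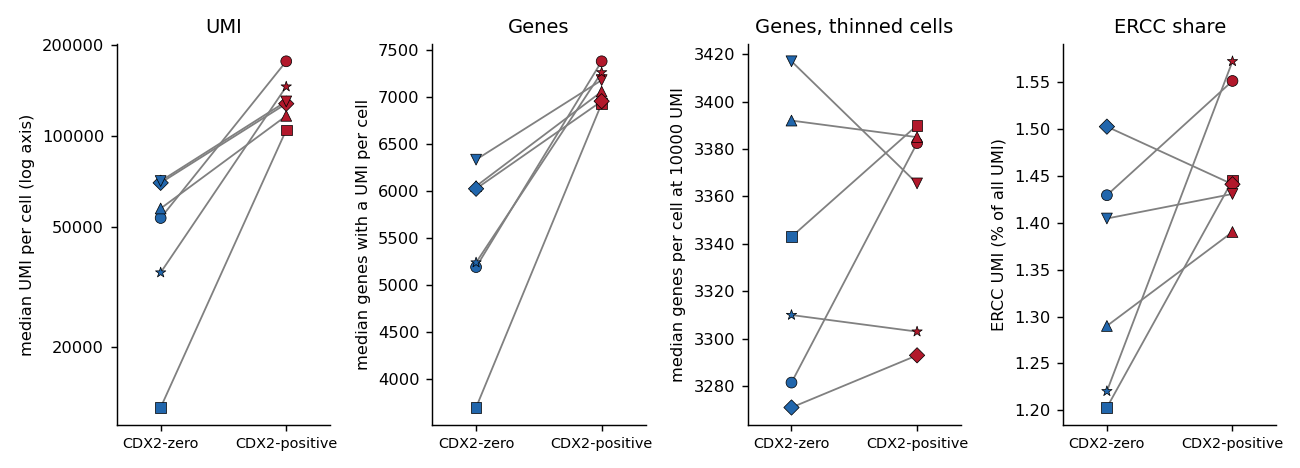
Median UMI per cell (log axis), median genes with a UMI per cell, the same in cells thinned to 10000 UMI, and the ERCC share of UMI in percent, for CDX2-zero and CDX2-positive cells. Each line joins the 2 groups of 1 embryo, with the point shapes of the plot of CDX2 against depth, and all 6 lines rise in the first 2 panels while 3 rise and 3 fall in the third.

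The UMI of the positive and of the zero cells were then summed in each embryo, giving 12 sums, and compared with the embryo as a block. The zero sum of Day2-E2 was a single cell of 12649 UMI, while the other zero sums held 107290 to 273397 UMI and the positive sums 292240 to 898860. The TMM scaling factor of that cell was 1.37 against 0.948 to 0.992 in the other sums. Counts and medians of gene lists are therefore also given without Day2-E2 where they moved by over 1.5 times.

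No tested gene was called between the groups, and CDX2 itself was not tested. Of 5777 genes with a mean of 5 or more UMI per sum, 0 (0%) passed an adjusted p of 0.05 by edgeR's quasi-likelihood test, and the lowest adjusted p was 0.262. At an unadjusted p under 0.05 there were 352 genes (6.09%), of which 205 (3.55%) were higher and 147 (2.54%) lower in positive cells. DESeq2 called 0 genes and gave 194 at an unadjusted p under 0.05. The median log2 fold change was 0.01. The 95% interval of a gene reached a median of 0.51 to either side on the log2 scale, or 1.42-fold. For the 3677 genes at 50 CPM or more it reached 1.32-fold, and for the 2100 genes below 1.76-fold. Of the 37 genes with a fold change over 2 in either direction, 36 were below 50 CPM.

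**Figure D3:**
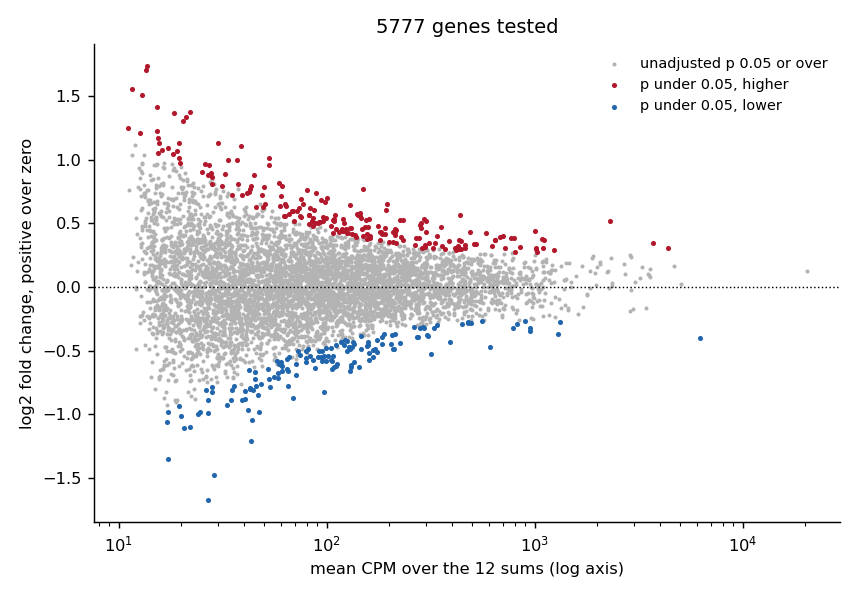
The log2 fold change of CDX2-positive over CDX2-zero cells (vertical axis) against the mean CPM over the 12 sums (horizontal log axis) for the 5777 genes tested, 1 point each. Colours mark the 205 genes higher and the 147 lower at an unadjusted p under 0.05, none of which passed adjustment, and the fold changes widen towards low CPM.

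The genes plotted with CDX2 in the study came first. POU5F1 (OCT4), a pluripotency factor, had 130 UMI in positive and 30 in zero cells. In positive cells its level was 36.7, 45.6, 45.1, 16.63, 57.7 and 37.6 CPM in Day2-E1 to Day2-E6. In zero cells it was 0, 0, 78.0, 17.1, 29.3 and 64.5 CPM. The groups overlapped, with 3 of 6 embryos higher in positive cells, and the log2 fold change was 0.19 (95% interval -0.52 to 0.90). A POU5F1 UMI was found in 22 of 23 positive cells and 10 of 14 zero cells, while at 10000 UMI the awaited shares were 35.1% and 28.1%.

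SALL4, a zinc finger factor of pluripotent cells, was the most abundant of these genes. In positive cells its level was 717, 804, 769, 627, 760 and 678 CPM. In zero cells it was 541, 0, 797, 583, 797 and 631 CPM. The 0 is the single zero cell of Day2-E2, and the groups overlapped in the others. The log2 fold change was 0.19 (95% interval -0.08 to 0.46).

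KLF4, a Krüppel-like factor used in reprogramming, had a UMI in all 37 cells. Its level was 102, 93.5, 90.3, 71.3, 109 and 92.4 CPM in positive cells. In zero cells it was 55.9, 237, 86.7, 60.0, 80.5 and 108 CPM, where 237 rests on 3 UMI of 1 cell. The log2 fold change was 0.20 (95% interval -0.28 to 0.69). FOSL1, an AP-1 subunit, was at 42.3 to 67.9 CPM in positive sums and 0 to 69.3 in zero sums, with a log2 fold change of 0.39 (95% interval -0.23 to 1.00).

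The other 4 genes were too rare for the filter. SALL1 had 26 UMI in 13 of 23 positive cells and 5 UMI in 5 of 14 zero cells. NANOG had 7 UMI in 6 positive cells and 2 UMI in 2 zero cells. MYC had 1 UMI, in a positive cell of Day2-E2, and PCDH10 had 0 UMI in all 37 cells. Expected at 10000 UMI, the share of cells with SALL1 was 8.10% in positive and 4.89% in zero cells, and that with NANOG was 2.26% and 1.28%.

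**Figure D4:**
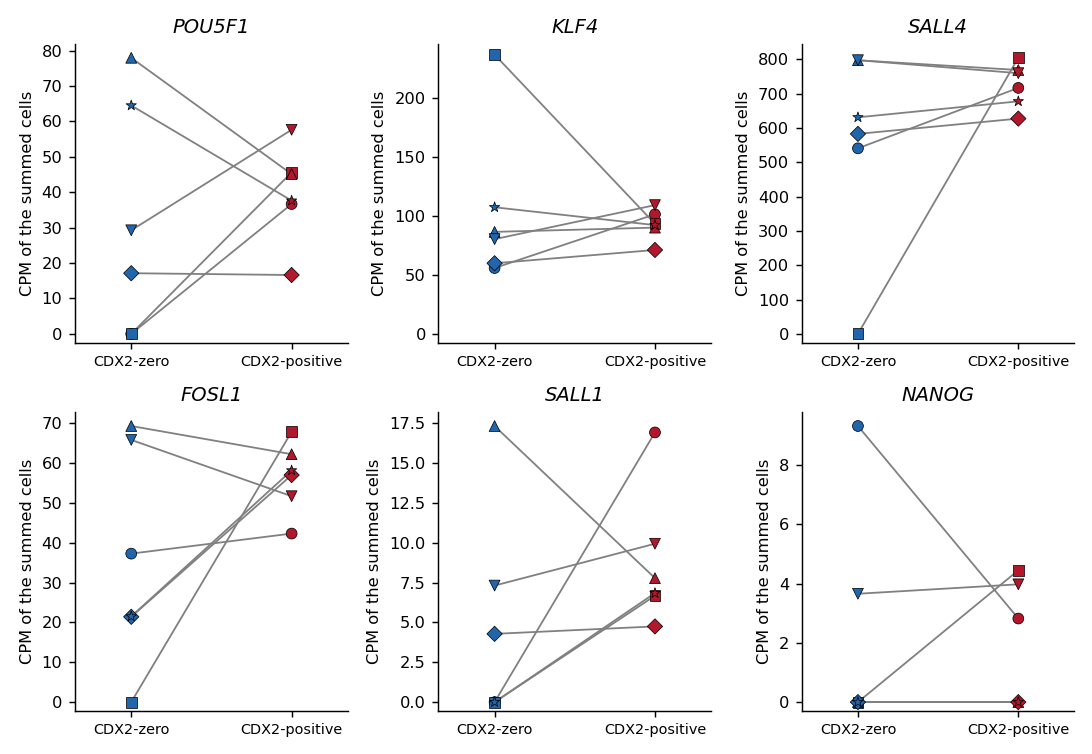
CPM of POU5F1, KLF4, SALL4, FOSL1, SALL1 and NANOG in the summed CDX2-zero and CDX2-positive cells of each embryo, with lines joining the groups of 1 embryo and the same point shapes. Lines run in both directions in each panel, and the square at 0 or at 237 CPM in the zero group is the single cell of Day2-E2.

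No trophectoderm-linked gene passed the adjusted threshold. Of 36 genes listed, 26 were in the table and 11 were tested, of which 1 was higher and 0 were lower at an unadjusted p under 0.05, or 9.09% higher against 3.55% of all genes. Their median log2 fold change was -0.07, or -0.10 without Day2-E2. KRT8 and KRT18, keratins of the trophectoderm, had no entry and were not analysed. MSX1, a homeobox factor, was the most abundant member at 1727 CPM ± 199 (SD, n = 6) in positive and 1818 ± 402 (SD, n = 6) in zero cells. GATA2, a factor of the trophoblast, was at 229 CPM ± 27.0 (SD, n = 6) and 316 ± 205 (SD, n = 6), which gave -0.15 on the log2 scale (95% interval -0.48 to 0.17). With cells thinned to 10000 UMI and the groups kept, GATA2 was at -0.31 to -1.41 in 5 draws and was called in 1 of them. The single zero cell of Day2-E2 had GATA2 at 712 CPM from 9 UMI, against 149 to 338 CPM in the other zero sums. Thinning gives that cell the same UMI total as each other cell, and whether this moved the GATA2 value was not tested. The member at the low unadjusted p was BMPR1A, a BMP receptor, at 0.46 (95% interval 0.10 to 0.83) and an edgeR adjusted p of 0.686. TFAP2C, a trophoblast factor, had 73 UMI in positive and 23 in zero cells, with a log2 fold change of -0.07 (95% interval -0.90 to 0.77). EOMES had 7 and 4 UMI.

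The genes placed upstream of CDX2 in the mouse gave 13 tested members, with 0 higher and 0 lower at an unadjusted p under 0.05 and a median of -0.03. GATA3, which activates CDX2 in mouse trophoblast, was at 28.2, 54.5, 43.6, 38.0, 29.8 and 13.69 CPM in positive cells. In zero cells it was at 0, 0, 69.3, 55.7, 36.6 and 43.0 CPM. Positive cells were higher in 2 of 6 embryos, those in which zero cells had no UMI, and the log2 fold change was -0.33 (95% interval -1.03 to 0.36). Of the Hippo pathway, 17 genes were tested, with a median of 0.15, or 0.07 without Day2-E2. At an unadjusted p under 0.05, 1 (5.88%) was higher and 0 were lower, against 3.55% and 2.54% of all genes. That member was FRMD6, a FERM domain protein upstream of the Hippo kinases, with 69 UMI in positive and 10 in zero cells. Its log2 fold change was 1.13 (95% interval 0.09 to 2.17) with an edgeR adjusted p of 0.779. The Hippo kinase STK4 was at 0.15 (95% interval -0.16 to 0.46). TEAD4 and YAP1 had no entry and were not analysed.

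Polarity and junction genes gave 21 tested members, with a median of 0.07. At an unadjusted p under 0.05, 1 (4.76%) was higher and 0 were lower, against 3.55% and 2.54% of all genes. EZR, which encodes the apical protein ezrin, was at 3120 CPM ± 344 (SD, n = 6) in positive and 2671 ± 396 (SD, n = 6) in zero cells, which gave 0.24 on the log2 scale (95% interval -0.03 to 0.51). CTNNA1, the alpha-catenin of adherens junctions, was at 0.30 (95% interval 0.02 to 0.58). Among pluripotency genes 11 were tested, 0 were higher and 0 lower at an unadjusted p under 0.05, and the median was 0.09. SOX2 had 317 and 84 UMI, with a log2 fold change of 0.06 (95% interval -0.40 to 0.52). DPPA3, a maternal factor of the early embryo, was at -0.17 (95% interval -0.44 to 0.09).

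Genes of mitosis had the most members at an unadjusted p under 0.05 in the higher direction. Of 38 tested, 6 were higher and 0 lower, or 15.8% against 3.55% of all genes, with a median of 0.07. Without Day2-E2, 6 were higher and 1 lower, with a median of 0.03. The 6 higher members of the main fit were BUB1, KIF20A, KIF23, CENPF, ECT2 and PRC1, which act in the spindle checkpoint, at kinetochores or in cytokinesis. Over all 38 members, whatever their p, 23 had a log2 fold change above 0 and 15 below it. CENPF was at 4565, 3519, 3391, 5011, 4305 and 3774 CPM in positive cells. In zero cells it was at 3029, 1897, 3198, 4820, 3650 and 3155 CPM, lower in each embryo though the groups overlapped. Its log2 fold change was 0.35 (95% interval 0.07 to 0.62) with an edgeR adjusted p of 0.686. AURKA, a mitotic kinase and the most abundant member, was at 0.13 (95% interval -0.19 to 0.45). CENPF was at -0.20 with a depth term. Depth was higher in the positive sum of each pair, so effects of depth and group cannot be fully told apart in that fit. With that term 1 of 38 mitosis genes (2.63%) was higher and 1 lower, against 0.744% and 2.5965% of all genes, whose median moved to -0.12. With a minimum of 50000 UMI per cell 3 of 38 (7.89%) were higher and 1 lower, against 2.61% and 2.46% of all genes. In 1 draw of cells thinned to 10000 UMI, 1 of 28 (3.57%) was higher and 1 lower, against 3.22% and 3.35%. DNA replication genes gave 39 tested members, with a median of 0.02. At an unadjusted p under 0.05, 1 (2.56%) was higher and 0 were lower, against 3.55% and 2.54% of all genes. Without Day2-E2 2 (5.13%) were higher, against 3.47% of all genes.

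Cytosolic ribosomal protein genes had the most members at an unadjusted p under 0.05 in the lower direction. Of 68 tested, 0 were higher and 7 lower, or 10.29% against 2.54% of all genes, with a median of -0.10. With every RPL and RPS symbol included, kinases and paralogs too, 8 of 77 were lower. With a depth term 1 was higher and 4 of 68 (5.88%) were lower, against 2.5965% of all genes, and the median was -0.19 beside -0.12 over all genes. In 1 thinned draw 1 was higher and 4 of 36 (11.11%) lower, against 3.35% of all genes. RPSA, a small subunit protein, was at 804, 1093, 1245, 1050, 1225 and 883 CPM in positive cells. Zero cells were at 1072, 2846, 1378, 1307, 1251 and 1405 CPM, higher in each embryo. Its log2 fold change was -0.37 (95% interval -0.62 to -0.11) with an edgeR adjusted p of 0.534, and with a depth term it was 0.06. Mitochondrial ribosomal protein genes gave 65 tested members, with a median of -0.02. At an unadjusted p under 0.05, 1 (1.54%) was higher and 1 lower, against 3.55% and 2.54% of all genes. Without Day2-E2 3 (4.62%) were lower, against 3.17% of all genes, with a median of -0.06.

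Oocyte-stored transcripts gave 20 tested members. At an unadjusted p under 0.05, 0 were higher and 2 lower, or 10.0% lower against 2.54% of all genes. Their median was -0.07, or -0.04 without Day2-E2. Without TMM scaling 5 of 20 (25.0%) were lower, against 3.27% of all genes. With a depth term 1 (5.0%) was higher and 1 lower, against 0.744% and 2.5965% of all genes. With a minimum of 50000 UMI per cell 0 were higher and 1 (5.0%) lower, against 2.61% and 2.46%. In 1 thinned draw 0 were higher and 3 of 19 (15.8%) lower, against 3.22% and 3.35%. The 2 lower members of the main fit were RNF114 at -0.29 (95% interval -0.56 to -0.03) and DAZL, a germ cell RNA-binding protein, at -0.39 (95% interval -0.77 to -0.01). Of 20 genes the study used for embryonic genome activation 1 was tested, the Y-linked helicase gene DDX3Y, at 0.69 (95% interval 0.18 to 1.197). Its reads may not be separable from those of its X-linked relative. Chromatin regulators gave 21 tested members, 0 in either direction at an unadjusted p under 0.05, with a median of 0.06. Of cumulus and granulosa markers 20 were in the table and 3 had 0 UMI in all sums, VIM, INHA and COL3A1. Only 5 of the 20 passed the filter. The most abundant were STAR with 847 UMI in positive and 220 in zero cells, HAS2 with 795 and 218, and SERPINE2 with 442 and 137. Others were near 0, such as CYP11A1 with 2 and 0 UMI, AMH with 1 and 0, and FOXL2 with 0 and 1. The summed level of the 20 markers was 629 to 798 CPM in positive and 651 to 875 CPM in zero cells. A single sperm gene was tested, ODF2 at 0.32 (95% interval -0.26 to 0.90).

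**Figure D5:**
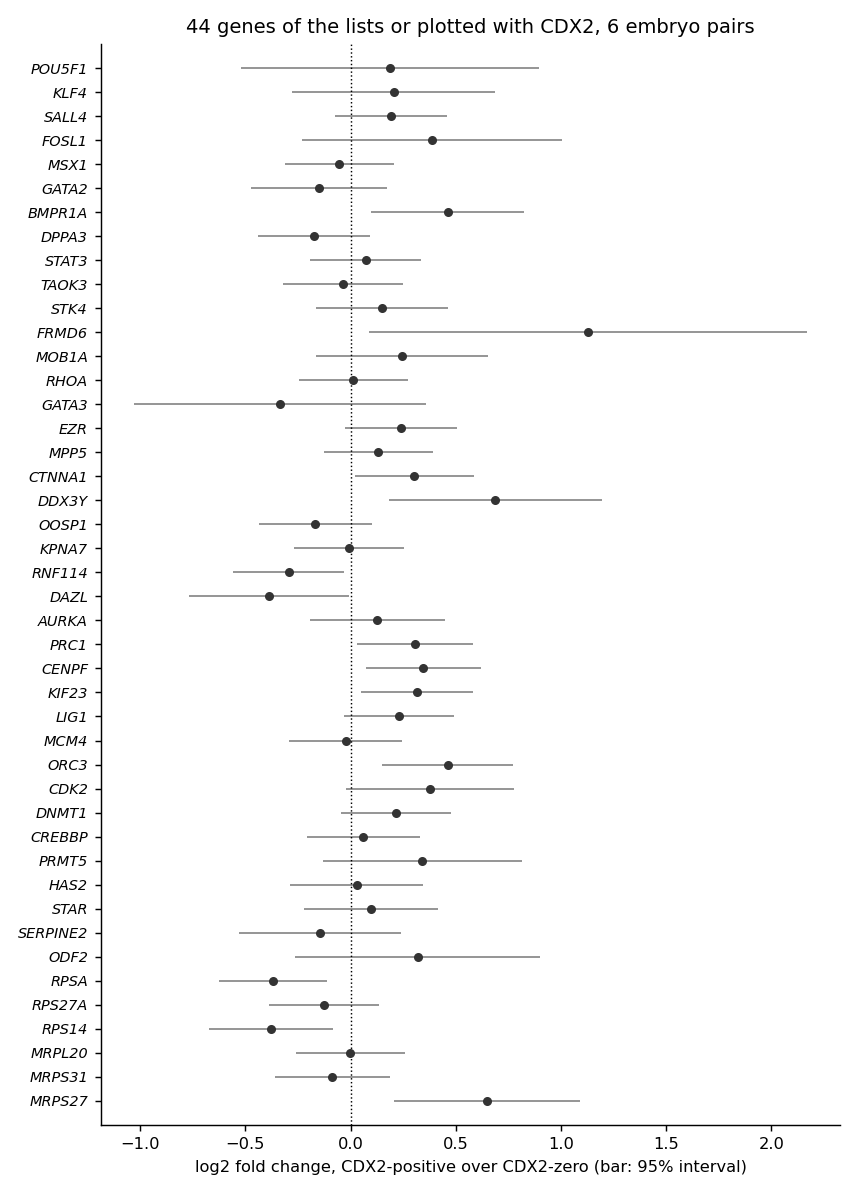
The log2 fold change of CDX2-positive over CDX2-zero cells for 44 genes of the lists or plotted with CDX2 (points) with 95% intervals (bars) from 6 embryo pairs. Most bars cross 0, FRMD6 has the highest value at 1.13 and DAZL the lowest at -0.39, and none passed the adjusted threshold.

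The genes with the smallest unadjusted p are given as values that did not pass. RSL1D1, a nucleolar protein, was at 564, 418, 454, 525, 491 and 667 CPM in positive cells. The zero cells had 382, 316, 295, 411, 391 and 323 CPM, so that the groups did not overlap. Its log2 fold change was 0.57 (95% interval 0.28 to 0.85) with an edgeR adjusted p of 0.262. With a depth term, which moved with the group, it was 0.21. Genes higher in positive cells in all 6 pairs numbered 166 (2.87%), and those lower in all 6 pairs 92 (1.59%). The zero sum of Day2-E2 is a single shallow cell, in which 1 UMI stood for 79.1 CPM. A gene without a UMI in that cell can count as higher in positive cells but never as lower. A gene with 1 UMI there can count as higher only above that level in the positive cells. The effect of that cell on these counts was not tested.

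HMGB2, a chromatin protein, was at 3803, 2998, 2411, 2495, 1716 and 2871 CPM in positive cells. Its level in zero cells was 3430, 791, 2236, 2069, 1379 and 1334 CPM, lower in each embryo with overlapping groups. Its log2 fold change was 0.52 (95% interval 0.25 to 0.78). It was 0.38 without Day2-E2 and -0.28 with a depth term. ADD1, an adducin of the membrane skeleton, was at 0.77 (95% interval 0.38 to 1.16). PEX5L, CROT, SMG1, CAAP1, DLGAP5, NBR1, CARMIL1, CASR and UBAP2L followed, at 0.44 to 1.02.

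In the lower direction MARCKSL1, an actin-binding protein, had 33 UMI in positive and 35 in zero cells. It was at 16.93, 11.125, 3.112, 19.0, 11.9 and 3.42 CPM in positive cells. Zero cells of these embryos had 18.6, 79.1, 17.3, 81.4, 18.3 and 43.0 CPM, higher in each embryo. These levels rest on only 2, 1, 2, 19, 5 and 6 UMI, and the 79.1 CPM is 1 UMI of 1 cell. The log2 fold change of MARCKSL1 was -1.68 (95% interval -2.58 to -0.78) with an edgeR adjusted p of 0.262. ACAA1, a peroxisomal thiolase, was at -1.21 (95% interval -1.91 to -0.51). SSR3, NHSL1, ZNF706, GPR19, DCK, GRM8, MRPL15, NRIP3, POLR3K and TPPP3 lay between -1.48 and -0.43.

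The same division was made in Day 3 embryos, collected later, around the 16-cell stage. Of 103 Day 3 cells kept, 14 were CDX2-positive, with 19 CDX2 UMI in all and at most 2 in a cell, and 6 embryos had both groups. edgeR called 0 of 4928 genes (0%), with 209 (4.24%) at an unadjusted p under 0.05. The difference between the Day 3 and the Day 2 effect was called for 0 of 4659 genes (0%), with 219 (4.70%) at an unadjusted p under 0.05. HMGB2 was at -0.07 (95% interval -0.36 to 0.23) and RSL1D1 at -0.04 (95% interval -0.42 to 0.33) on Day 3.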

How the data were processed

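Single blastomeres were sequenced by SCRB-Seq, and the authors mapped reads to the bovine genome and ERCC sequences with STAR 2.5.2b (named in the submitters' processing notes) and deposited a table of UMI counts, in which PCR copies of a molecule count once. The deposited normalised table was not used. The table held 10772 genes and 92 ERCC spike-ins. Cells were picked singly and no doublet caller was run. No Day 2 cell shared a barcode with another, and all 47 Day 2 barcodes recurred among Day 3 cells.

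Positive and zero cells were summed per embryo, the replicate, and fitted with edgeR 4.0.16 (TMM, quasi-likelihood, embryo block, Benjamini-Hochberg) after a filter of a mean of 5 UMI per sum. DESeq2 1.42.0 and limma 3.58.1 were alternatives. Sums of the same embryo are paired by design, and their deviations correlated at 0.064 to 0.196. Adjusted p-values stand for edgeR's fit over all genes tested, and intervals are 95%. Single measures were compared by exact sign-flip permutation over the 6 embryos.

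Named genes were the 12 of smallest p in each direction, the 8 genes plotted with CDX2 in the study, and up to 4 per list (the 2 most abundant and the 2 of smallest p). Further list members were named after their values were seen. These were TFAP2C, EOMES, SOX2, other mitosis genes at an unadjusted p under 0.05, and cumulus, granulosa and sperm genes with few or no UMI. Groups and gene lists were chosen with earlier results of these data known. The result of 1 list is not reported here. Of 423 list entries, 304 matched by symbol, and matches through synonyms were not used because they led to other genes. The cytosolic ribosomal list was first taken as every RPL and RPS symbol. After its values had been seen it was narrowed, taking out kinases, binding proteins and paralogs (15 in the table, 9 tested), and both counts are given. The 4 further thinning draws were also added after seeing the data. The depth term was the log2 mean UMI per cell of each sum. It was higher in the positive sum of each pair, by 0.46 in Day2-E5 to 3.34 in Day2-E2, whose zero sum is a single cell. Values from that fit are therefore not effects freed of depth. Alternatives are listed at the end. The code was tested on simulated data.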

Additional observations from a re-analysis of the deposited data

Results flagged for a closer look

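In 66 groups of 6 sums of named genes, 7 held a sum far from the others. Chance flags about 1 in 20 groups only where the 6 sums are alike in depth, which did not hold here. Of the 7, 4 were the single zero cell of Day2-E2. In that cell KLF4 was at 237 CPM against 55.9 to 108 CPM in the other zero sums, and POLR3K at 949 against 317 to 439 CPM. SALL4 was at 0 there against 541 to 797 CPM, and CASR at 0 against 180 to 222 CPM. In positive cells, MYC was at 1.11 CPM in Day2-E2 and 0 in the others. DLGAP5 was at 1639 CPM in positive cells of Day2-E6 against 985 to 1164 CPM. NRIP3 was at 140 CPM in positive cells of Day2-E4 against 82.1 to 92.3 CPM.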

How the results depend on the processing

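The count of 0 called genes was kept without TMM scaling, without or with another filter, with DESeq2, with a minimum of 2000 or 50000 UMI, with 2 or more CDX2 UMI, with a depth term, with cells weighted equally and without each embryo in turn. Without the replicate block, 0 genes were called and 277 had an unadjusted p under 0.05. Equal weighting of cells moved the median log2 fold change to 0.26 and the depth term moved it to -0.12. Thinned to 10000 UMI with the groups kept, draws 1, 2 and 4 called 2 (HMGB2, RPS2), 2 (GATA2, HMGB3) and 1 (SDE2), draws 3 and 5 called 0, and no gene was called in more than 1 draw. With groups set anew, draw 5 called 4 (CKS2, OOSP1, PSMA5, TMSB4X, all lower) and the others 0. The mean log2 ratio of UMI was 0.84 at a minimum of 50000 UMI (exact permutation p = 0.0625, the smallest 5 pairs allow), and 1.31 to 1.74 without each embryo. The gene difference was 1397 to 1874 without each embryo, 17.4 in thinned cells and 0.9 with groups set anew. Over these alternatives the 24 genes of smallest p took the other sign in 20 of 514 values, 16 of them with groups set anew, and the 47 other named genes in 157 of 1070. The narrowing of the cytosolic ribosomal list, made after its values were seen, changed the members lower at an unadjusted p under 0.05 from 8 of 77 to 7 of 68 and the median from -0.09 to -0.10.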
